A study of Homo sapiens with 4 samples.

Results

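Mediator and Integrator are the large complexes that act with RNA polymerase II at the start of transcription and shortly after it. The genes of their subunits were examined for peaks of CHAF1A CUT&Tag. They were taken from the RefSeq gene table of GRCh38.p14 as the protein-coding genes whose symbols begin with MED or INTS and a digit, with CCNC, CDK8 and CDK19 added. This gave 49 genes of 20037 protein-coding genes, 33 for Mediator and 16 for Integrator. The symbols fit the known subunits of both complexes, including the paralogues MED12L, MED13L, CDK19 and INTS6L.

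Mediator carries signals from transcription factors at enhancers to the polymerase at the promoter. Its head and middle modules contact the polymerase, its tail receives activators, MED14 ties the modules together, and a kinase module built of CDK8 or CDK19, cyclin C, MED12 and MED13 joins and leaves the core reversibly. Integrator cuts nascent RNA with the endonuclease INTS11 and carries the phosphatase PP2A, and so forms the ends of small nuclear RNAs and stops many polymerases soon after initiation. Subunits of both complexes are made in most cell types.

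The cells were RBE, an established line of human intrahepatic cholangiocarcinoma, a cancer of the bile ducts inside the liver. They received an siRNA against CHAF1A (si-CHAF1A, 2 samples) or a control siRNA (si-Ctrl, 2 samples) and were harvested 48 hours after transfection. The number of siRNA sequences used is not stated, and no other genetic change or agent is named for either group. CHAF1A is the large subunit of CAF-1, the chaperone that places new histones on replicated DNA. In CUT&Tag an antibody guides a transposase to its target, and the released fragments pile up where the target was. Each group was analysed through 1 deposited peak list, read from its name as the list of that group, and the samples behind a list cannot be told apart. Differences between the lists could not be checked against replicates and are given without p-values. Intervals are 95% exact binomial intervals and cover counting error only.

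The si-CHAF1A list held 97653 peaks on chromosomes 1 to 22, X and Y, and the si-Ctrl list 76313. The reads overlapping each summit and the local background were recovered from the deposited fold enrichment and p. The commonest background value in a list, used as its genome background, was 8.49 reads per position in the si-CHAF1A list and 6.34 in the si-Ctrl list. Summit reads are given below also as multiples of the genome background of their own list, since the lists differ in depth. Neither RNA nor protein of CHAF1A was analysed here, so the knockdown itself was not checked, and no untargeted library was used here, so a peak marks a site of signal, in which CHAF1A occupancy and open chromatin reached by the enzyme cannot be told apart. Of the bile duct markers KRT7, KRT19, SOX9 and EPCAM, 3 had a peak in the si-CHAF1A list and 4 in the si-Ctrl list, with KRT7 having none in the si-CHAF1A list, while the hepatocyte genes ALB, APOA1 and TTR had none in either.

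Most genes of both complexes had a peak within 1 kb of a gene boundary, called a gene end here. For Mediator these were 29 of 33 genes (87.9%, 71.8 to 96.6) in the si-CHAF1A list and 30 (90.9%, 75.7 to 98.1) in the si-Ctrl list. For Integrator they were 15 of 16 genes (93.8%, 69.8 to 99.8) in the si-CHAF1A list and 16 (100%, 79.4 to 100) in the si-Ctrl list. Among all protein-coding genes 64.3% had such a peak in the si-CHAF1A list and 61.1% in the si-Ctrl list. Many Integrator peaks also touch a neighbouring gene: counting only peaks at 1 protein-coding gene, 9 of 16 Integrator genes had a peak in the si-CHAF1A list and 10 in the si-Ctrl list, beside 48.9% and 45.5% of all genes in the si-CHAF1A and the si-Ctrl list, while 25 of 33 Mediator genes had one in each. With all peaks, the intervals of Mediator and Integrator overlapped in each list, and a difference between the complexes was not detectable with this number of genes. A peak in both lists was found at 43 of the 49 genes, beside 56.2% of all protein-coding genes. MED13L alone had a peak in the si-CHAF1A list only, beside 8.07% of all genes, and MED10, MED24 and INTS1 in the si-Ctrl list only, beside 4.90%. MED16 and MED18 had one in neither list, beside 30.8%.

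**Figure D1:**
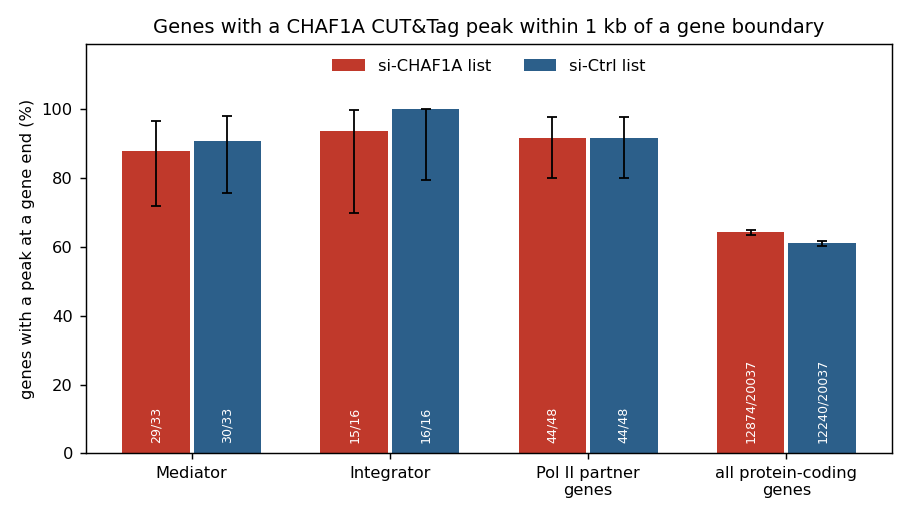
Percent of genes with a peak within 1 kb of a gene boundary in the si-CHAF1A list (red) and the si-Ctrl list (blue), for 33 Mediator genes, 16 Integrator genes, 48 partner genes of RNA polymerase II transcription and 20037 protein-coding genes. Bars start at 0, error bars are 95% exact binomial intervals, and the counts are printed in the bars; the 3 gene sets lie above all genes and their intervals overlap one another, with peaks that touch a neighbouring gene included.

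Genes that work with the same polymerase had peaks about as often as the members did. Of 48 partner genes, 44 had a peak in the si-CHAF1A list and 44 in the si-Ctrl list, and these were the same genes. All 13 genes of pausing and elongation had a peak in each list, among them SUPT5H, a subunit of the pausing factor DSIF, and CCNT1, the cyclin of P-TEFb. Of 18 initiation factor genes 16 had one in each list, without GTF2B and ERCC3. The 4 PP2A subunit genes, the 3 genes of SOSS partners of INTS3 and the nuclease paralogues CPSF2 and CPSF3 all had a peak in both lists. SNAPC4, of the complex that activates snRNA genes, and ZNF609, an Integrator binder, had none in either, which left 4 of 5 SNAPC genes and 2 of 3 genes of other Integrator binders with a peak in each list.

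The strongest Mediator site lay at MED1, the subunit through which nuclear receptors bind the complex (NCBI Gene 5469, chromosome 17, 39404285 to 39451263). The si-CHAF1A peak spanned 39450504 to 39451743 with 3077 reads at the summit, and the si-Ctrl peak spanned 39450771 to 39451611 with 1952 reads. These were 362 and 308 times the genome background of the si-CHAF1A and the si-Ctrl list. Both summits fell on the same base, 46 bp upstream of the 5′ boundary. By −log10 q, MED1 stood 7th among all genes of the si-CHAF1A list and 5th in the si-Ctrl list. The deposited fold enrichment, 18.1 in the si-CHAF1A and 21.1 in the si-Ctrl list, is taken over a local background, which at MED1 was 19.9 and 14.5 times that of the genome in the si-CHAF1A and the si-Ctrl list.

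The strongest Integrator site lay at INTS13, a subunit of the arm module (NCBI Gene 55726, chromosome 12, 26905181 to 26938332). Its peak had 3772 summit reads in the si-CHAF1A list, at 444 times the genome background, and 2341 in the si-Ctrl list, at 369 times. By −log10 q it stood 2nd among all genes in each list. The summits lay 93 bp upstream of the 5′ boundary in the si-CHAF1A list and 94 bp upstream in the si-Ctrl list. The same peak lies at an end of FGFR1OP2, so its signal cannot be assigned to either gene.

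The 6 strongest Mediator genes by −log10 q were the same in both lists, MED1, CCNC, MED22, MED11, MED14 and MED21, and so were the 6 strongest Integrator genes, INTS13, INTS9, INTS4, INTS7, INTS5 and INTS6. CCNC, which encodes cyclin C of the kinase module, had 573 summit reads in the si-CHAF1A list and 303 in the si-Ctrl list, or 67.5 times background in the si-CHAF1A list and 47.8 times in the si-Ctrl list. MED22, of the head, had 639 reads in the si-CHAF1A list and 403 in the si-Ctrl list (75.3 and 63.6 times), but deposited folds of only 4.52 in the si-CHAF1A list and 5.37 in the si-Ctrl list. Its peak, 2387 bp wide in the si-CHAF1A list and 2075 bp in the si-Ctrl list, also covers an end of the ribosomal protein gene RPL7A, and the local background there was 16.6 times the genome background in the si-CHAF1A list and 11.7 times in the si-Ctrl list. MED11, MED14 and MED21 had 19.7 to 25.0 times background in the si-CHAF1A list and 25.6 to 37.4 times in the si-Ctrl list.

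In Integrator the cleavage module ranged widely. INTS9, the inactive partner of the nuclease, had 490 summit reads in the si-CHAF1A list (57.7 times background) and 465 in the si-Ctrl list (73.3 times). INTS4, the scaffold that holds INTS9 and INTS11, had 328 reads in the si-CHAF1A list (38.6 times) and 320 in the si-Ctrl list (50.5 times). INTS11, the nuclease itself, had 85 reads in the si-CHAF1A list (10.0 times) and 72 in the si-Ctrl list (11.4 times), below the median gene with a peak by −log10 q in each list, at percentiles of 40.1 and 39.2 in the si-CHAF1A and the si-Ctrl list. INTS5, INTS6 and INTS7 had 23.8 to 33.2 times background in the si-CHAF1A list and 31.9 to 38.5 times in the si-Ctrl list. The peak of INTS9 is shared with HMBOX1, that of INTS7 with DTL and that of INTS5 with GANAB. A weaker INTS5 peak at the other gene end touches no other protein-coding gene. It had 106 reads in the si-CHAF1A list (12.5 times) and 98 in the si-Ctrl list (15.5 times). Strand was not known here for INTS5, so neither end can be called its 5′ end.

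**Figure D2:**
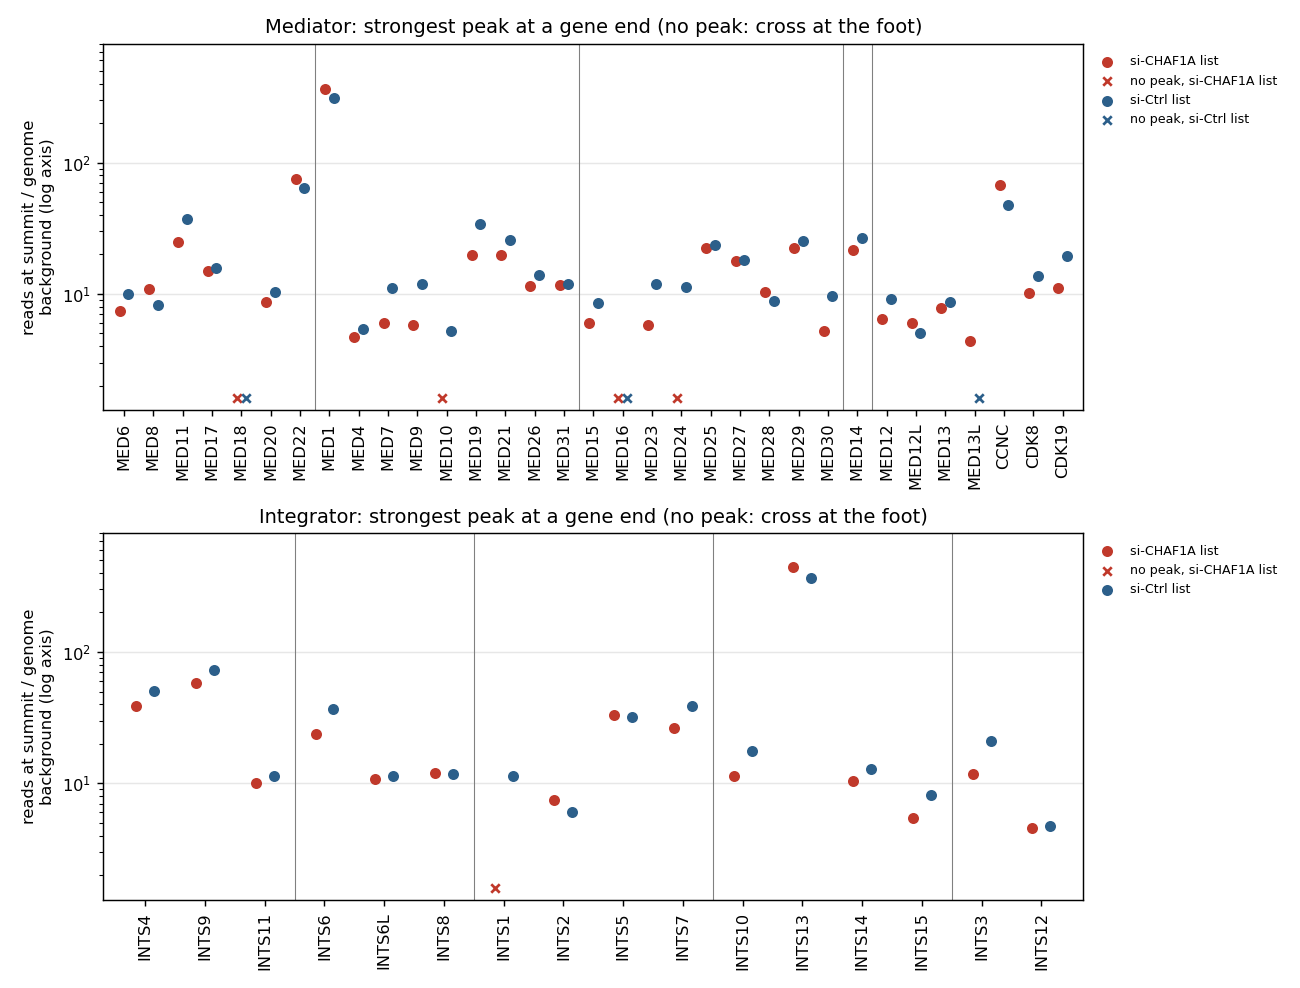
Reads at the summit of the strongest peak at each gene end, as multiples of the genome background of the list (log axis), for Mediator genes (top) and Integrator genes (bottom) in the si-CHAF1A list (red) and the si-Ctrl list (blue), with crosses at the foot where a list has no peak. Vertical lines part the modules, in the order head, middle, tail, MED14 and kinase module for Mediator, and cleavage module, phosphatase module, backbone, arm module and other subunits for Integrator; MED1 and INTS13 stand above 300 in both lists, and every other gene lies at 75.3 or below.

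For each complex taken alone, the median strength of genes with a peak was not distinguishable from that of all genes in either list. No interval was computed for the 2 complexes together. Of all members with a peak, 29 of 44 in the si-CHAF1A list and 30 of 46 in the si-Ctrl list lay above the median gene. The median percentile by −log10 q, among all protein-coding genes with a peak in the same list, was 66.0 for Mediator and 67.5 for Integrator in the si-CHAF1A list. In the si-Ctrl list it was 60.2 for Mediator and 66.7 for Integrator. The 95% intervals of these medians, from binomial limits on ranks, were 41.6 to 80.7 for Mediator and 43.9 to 91.7 for Integrator in the si-CHAF1A list. In the si-Ctrl list they were 40.8 to 74.5 for Mediator and 30.8 to 93.1 for Integrator, and all 4 include the middle of the scale, where the median gene stands. Among the strongest 10% of genes by −log10 q were 3 Mediator and 5 Integrator genes in the si-CHAF1A list and 4 Mediator and 5 Integrator genes in the si-Ctrl list. Median summit reads over all members were 11.2 times background in the si-CHAF1A list and 12.4 times in the si-Ctrl list, beside 9.54 and 11.8 times for all genes with a peak in the si-CHAF1A and the si-Ctrl list.

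The other head genes were MED17, the scaffold of the head, with 14.8 times background in the si-CHAF1A list and 15.8 times in the si-Ctrl list, and MED6, MED8 and MED20, at 7.42 to 10.8 times in the si-CHAF1A list and 8.20 to 10.4 times in the si-Ctrl list. In the middle module MED4, MED7, MED19, MED26 and MED31 had peaks at 4.71 to 19.8 times background in the si-CHAF1A list and 5.36 to 33.8 times in the si-Ctrl list, with MED19 the highest and MED4 the lowest in each. MED26 recruits elongation factors to Mediator. In the tail MED15, MED23, MED25, MED27, MED28, MED29 and MED30 had peaks, from 5.18 times (MED30) to 22.5 times (MED29) in the si-CHAF1A list and from 8.52 times (MED15) to 25.1 times (MED29) in the si-Ctrl list. For MED29 the strongest peak of each list lay at the 3′ end, 10185 bp past the 5′ boundary, while the weaker peak at its 5′ end also touches ends of SAMD4B and PAF1.

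The kinase module held a peak at all 7 genes in the si-CHAF1A list and at 6 in the si-Ctrl list. CDK8 had 86 summit reads in each list, or 10.1 times background in the si-CHAF1A list and 13.6 times in the si-Ctrl list. Its paralogue CDK19 had 94 reads in the si-CHAF1A list and 123 in the si-Ctrl list, at a peak that also touches AMD1. MED12, which activates the kinase, had 55 reads in the si-CHAF1A list and 58 in the si-Ctrl list, and MED13, which links the module to the core, had 66 and 55 in the si-CHAF1A and the si-Ctrl list. MED12L had 51 reads in the si-CHAF1A list and 32 in the si-Ctrl list, with both of these summits inside the gene, 941 bp past the 5′ boundary in the si-CHAF1A list and 1195 bp past it in the si-Ctrl list. A further MED12L peak, 131 bp upstream of the boundary with 37 summit reads, was in the si-CHAF1A list and overlapped no si-Ctrl peak. By −log10 q, CCNC, CDK8 and CDK19 lay above the median gene with a peak in each list, and MED12, MED12L, MED13 and, in the si-CHAF1A list, MED13L below it.

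The phosphatase module held peaks in both lists at INTS6, INTS6L and INTS8, the last of which docks PP2A. INTS8 had 102 reads in the si-CHAF1A list and 75 in the si-Ctrl list, and INTS6L 91 and 72 in the si-CHAF1A and the si-Ctrl list, with its summits 893 bp apart. The si-CHAF1A peak of INTS6L, 1411 bp wide, also overlapped a weaker si-Ctrl peak with 57 reads. The summit of that weaker peak lay 197 bp past the 5′ boundary, and the si-CHAF1A summit 174 bp past it. In the backbone INTS2 had 63 reads in the si-CHAF1A list and 38 in the si-Ctrl list. In the arm module INTS10, INTS14 and INTS15 had 97, 89 and 46 reads in the si-CHAF1A list and 112, 81 and 52 in the si-Ctrl list. INTS15 also had a si-Ctrl peak 155 bp upstream of its 5′ boundary, with 50 summit reads and a −log10 q of 14.5, that overlapped no si-CHAF1A peak and also touches ZDHHC4. INTS3, which is shared with the DNA repair complex SOSS, had 100 reads in the si-CHAF1A list (11.8 times) and 133 in the si-Ctrl list, at a log2 ratio of −0.83. INTS12 was the weakest Integrator gene by multiple of background in each list, with 39 reads in the si-CHAF1A list and 30 in the si-Ctrl list, at a peak shared with GSTCD.

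Strand was known for 37 members from the promoter table of GRCh38.p14, and for these the peaks sat mostly at the 5′ end. Within 1 kb of the 5′ boundary, 20 of 25 Mediator genes had a peak in the si-CHAF1A list and 21 in the si-Ctrl list, and 11 of 12 Integrator genes had one in each list. The share over all 15842 protein-coding genes with a strand was 61.2% in the si-CHAF1A list and 58.7% in the si-Ctrl list. At the 3′ boundary, 6 members had a peak in the si-CHAF1A list (16.2%) and 5 in the si-Ctrl list (13.5%), beside 18.3% and 13.9% of all genes in the si-CHAF1A and the si-Ctrl list. Of members whose strongest summit could be placed, 27 of 32 (84.4%) lay within 300 bp of the 5′ boundary in the si-CHAF1A list and 26 of 34 (76.5%) in the si-Ctrl list, beside 58.3% and 64.0% of all genes in the si-CHAF1A and the si-Ctrl list. Median positions of the summits within 1 kb were 44 bp upstream in the si-CHAF1A list and 47 bp upstream in the si-Ctrl list, beside 46 and 63 bp upstream for all genes in the si-CHAF1A and the si-Ctrl list.

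**Figure D3:**
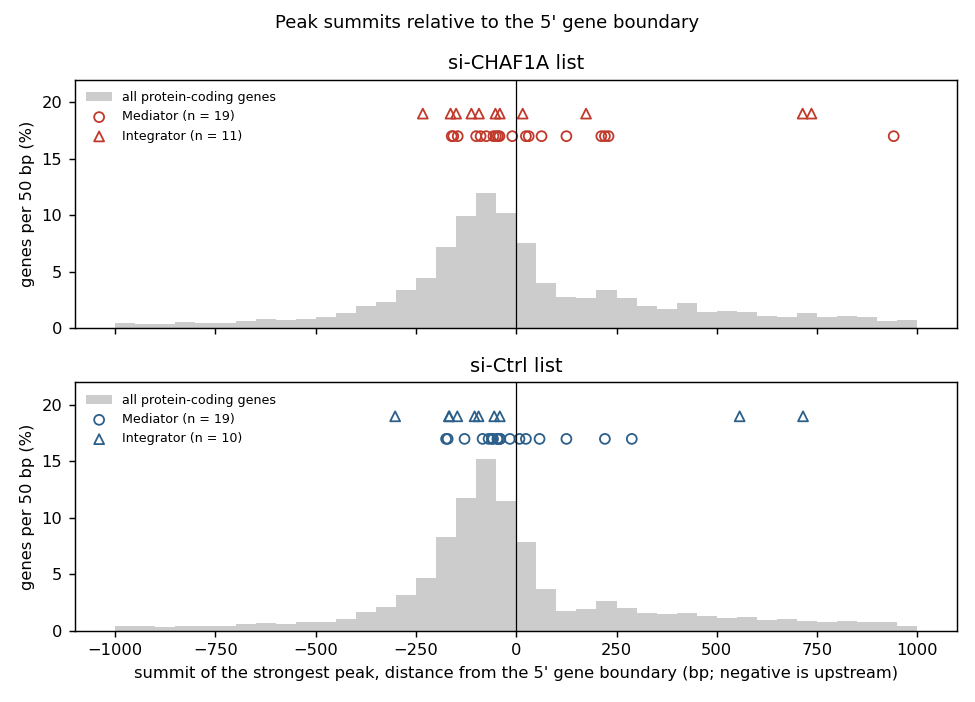
Position of the strongest peak's summit relative to the 5′ gene boundary in bp, negative upstream, for the si-CHAF1A list (top) and the si-Ctrl list (bottom), with Mediator genes as circles, Integrator genes as triangles and all protein-coding genes as a histogram in percent per 50 bp. Only summits within 1 kb are drawn; the heights of the circles and triangles carry no value, and most members lie between 300 bp upstream and 300 bp downstream, where the histogram is highest.

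At the 5′ boundary, 30 of the 37 members with a strand had a peak in both lists. A peak in 1 list only was found at 3 members, MED13L in the si-CHAF1A list and MED9 and MED10 in the si-Ctrl list, beside 11.5% of all genes. MED16, MED18, MED24 and INTS1 had none in either. The promoters of these 3 genes are printed here, with those of MED1 and INTS7, which had a summit in the promoter in both lists, and of MED18, which had no peak. The sequences are the 250 bases before the transcription start in RefSeq (GRCh38.p14), read 5′ to 3′ on the gene's strand. Capitals mark every match, on either strand, to one of the searched motifs, and overlapping matches are both counted. ETS factors were searched as CCGGAAG and the respiratory factor NRF1 as GCATGCGC. The GC box of SP1 was searched as GGGCGG, and the box bound by NF-Y was searched as CCAAT. The factor YY1 was searched as AAGATGGC, the cyclic AMP element (CRE) as TGACGTCA, and the core promoter element called the TATA box as TATAAA.
MED1, chr17:39451264-39451513, minus strand: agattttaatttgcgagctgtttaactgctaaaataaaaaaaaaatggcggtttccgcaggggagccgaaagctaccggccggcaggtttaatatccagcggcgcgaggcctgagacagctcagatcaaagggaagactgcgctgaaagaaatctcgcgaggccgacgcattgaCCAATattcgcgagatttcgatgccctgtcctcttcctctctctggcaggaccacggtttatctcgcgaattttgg
INTS7, chr1:212035558-212035807, minus strand: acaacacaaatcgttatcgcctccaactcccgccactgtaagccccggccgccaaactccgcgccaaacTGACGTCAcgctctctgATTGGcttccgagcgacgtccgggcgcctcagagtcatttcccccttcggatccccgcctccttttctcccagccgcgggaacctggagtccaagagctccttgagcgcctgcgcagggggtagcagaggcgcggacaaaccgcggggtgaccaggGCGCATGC
MED9, chr17:17476750-17476999, plus strand: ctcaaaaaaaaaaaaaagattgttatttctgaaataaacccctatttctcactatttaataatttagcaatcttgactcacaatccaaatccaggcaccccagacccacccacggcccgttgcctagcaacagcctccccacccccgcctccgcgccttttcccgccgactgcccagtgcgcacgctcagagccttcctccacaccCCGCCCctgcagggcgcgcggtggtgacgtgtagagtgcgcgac
MED10, chr5:6378548-6378797, minus strand: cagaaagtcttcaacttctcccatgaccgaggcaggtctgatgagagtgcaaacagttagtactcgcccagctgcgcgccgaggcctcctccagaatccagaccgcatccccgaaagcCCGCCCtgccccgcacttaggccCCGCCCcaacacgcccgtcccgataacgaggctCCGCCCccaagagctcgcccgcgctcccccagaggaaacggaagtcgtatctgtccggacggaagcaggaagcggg
MED13L, chr12:116277694-116277943, minus strand: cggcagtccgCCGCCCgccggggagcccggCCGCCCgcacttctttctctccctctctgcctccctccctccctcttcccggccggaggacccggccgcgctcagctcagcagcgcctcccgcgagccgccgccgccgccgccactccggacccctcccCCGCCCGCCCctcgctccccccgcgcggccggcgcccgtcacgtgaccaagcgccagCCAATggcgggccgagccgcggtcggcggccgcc
MED18, chr1:28328790-28329039, plus strand: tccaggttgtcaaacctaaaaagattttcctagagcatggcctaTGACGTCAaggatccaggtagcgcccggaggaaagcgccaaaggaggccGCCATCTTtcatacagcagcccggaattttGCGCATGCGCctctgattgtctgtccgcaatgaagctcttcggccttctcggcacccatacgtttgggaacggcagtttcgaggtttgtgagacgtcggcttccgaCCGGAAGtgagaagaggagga

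MED9 encodes a middle module subunit. In the si-Ctrl list a peak at 17476847 to 17477033 on chromosome 17 had 75 summit reads (11.8 times background), with its summit 16 bp upstream of the 5′ boundary. Its deposited fold was 7.56 and its −log10 q 39.2, and no si-CHAF1A peak lay there. At the same multiple of background the site would have had 100 reads in the si-CHAF1A list, where 30 were needed to pass the threshold p of 1e-05. The counting interval of the si-Ctrl multiple, 9.30 to 14.8, lay above the multiple needed, 3.53. The si-CHAF1A list held 2 weak peaks at the 3′ end of MED9 instead, with 49 and 51 summit reads, so that the gene counts as having a peak in both lists.

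MED10, also of the middle module, had 33 summit reads in the si-Ctrl list (5.21 times background, fold enrichment 4.63) at 6378511 to 6378768 on chromosome 5. The interval of this multiple, 3.58 to 7.31, lay above the 2.71 needed in the si-CHAF1A list, which held no peak there. The intervals of MED9 and MED10 hold the counting error of the si-Ctrl list only, and the sites were picked for the missing peak. They therefore cannot show that an absence from the si-CHAF1A list exceeds counting error. MED13L, a paralogue of MED13, had 37 summit reads in the si-CHAF1A list (4.36 times, fold enrichment 3.72) at 116277606 to 116277946 on chromosome 12. The interval of its multiple, 3.07 to 6.01, included the 3.31 needed in the si-Ctrl list, so its absence there was within counting error. The control-only peaks of MED24 and INTS1 lay past their 3′ boundaries with fold enrichments of 2.41 and 2.06, and that of MED24 also touches CSF3.

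MED18, of the head, had no peak within 3 kb of either boundary or within the gene in either list. Its promoter held matches to 4 of the 7 motifs, a CRE, an ETS and a YY1 site and overlapping NRF1 matches on both strands. The MED1 sequence held a CCAAT match alone, although its summit in both lists lies inside these 250 bases. MED16, MED24 and INTS1 had no 5′ peak in either list but held 3 or more peaks inside the gene in the si-CHAF1A list and 2 or more in the si-Ctrl list.

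Promoter windows from 250 bases before to 50 after the start were available for the same 37 members. Besides MED9, MED10 and MED13L, the windows of MED12L (si-CHAF1A list) and INTS15 (si-Ctrl list) were covered in 1 list only, although both genes had peaks of both lists nearby. The share of all windows covered in 1 list only was not computed, so these members cannot be set against the general level. A si-CHAF1A peak covered part of 30 of the 37 member windows (81.1%) and a si-Ctrl peak of 31 (83.8%). Among the windows of all 15842 genes the shares were 52.1% in the si-CHAF1A list and 51.4% in the si-Ctrl list. The ETS motif was in 11 member windows (29.7%, 15.9 to 47.0), beside 14.2% of all windows, and the YY1 motif in 5 (13.5%, 4.54 to 28.8), beside 3.91%. These intervals are not adjusted for the number of motifs searched. For ETS the intervals of Mediator alone (12.1 to 49.4%) and Integrator alone (9.92 to 65.1%) included the share of all windows. For YY1 the interval of Mediator alone (6.83 to 40.7%) lay above it. All 5 windows with the YY1 motif belonged to Mediator genes, MED1, MED16, MED18, MED25 and MED29 (for MED1 the match is not within the 250 bases printed), and among the 12 Integrator windows there was none (0 to 26.5%). The other motifs were in member windows in shares whose intervals included that of all windows, namely SP1 in 24, CCAAT in 17 and NRF1, CRE and TATA in 2 each. Median GC content was 61.7% in members and 62.7% in all windows. A match is a description of the letters and not of a bound factor.

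Peaks at member ends were mostly found in both lists. Of 60 si-CHAF1A peaks at member ends, 53 (88.3%, 77.4 to 95.2) overlapped a si-Ctrl peak by at least 1 bp, and of 60 si-Ctrl peaks, 52 (86.7%, 75.4 to 94.1) overlapped a si-CHAF1A peak. Over all peaks at ends of protein-coding genes these shares were 74.3% in the si-CHAF1A list and 83.6% in the si-Ctrl list. The unshared peaks at members were weak, with a median −log10 q of 6.21 in the si-CHAF1A list and 9.43 in the si-Ctrl list, against 35.7 and 35.3 for the shared ones in the si-CHAF1A and the si-Ctrl list. Unshared peaks were also the weaker ones over all ends of protein-coding genes. There the medians were 7.16 against 23.9 for shared peaks in the si-CHAF1A list, and 7.38 against 25.6 in the si-Ctrl list. The si-Ctrl peak of MED9 was the strongest unshared one at members. For 42 of the 43 members with a peak in both lists the strongest peaks of the lists overlapped, MED9 being the exception, beside 91.3% of all such genes.

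At those 42 shared sites the height in multiples of background was compared side by side. The median log2 ratio of si-CHAF1A over si-Ctrl was −0.27 for 27 Mediator genes and −0.29 for 15 Integrator genes, beside −0.24 over 10277 protein-coding genes. It was below 0 for 21 Mediator genes (77.8%) and 11 Integrator genes (73.3%), beside 73.5% of all genes. A ratio under 0 was thus the common state of genes in these lists. The ratio rests on the background as the scale of depth, which was not checked against read totals.

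Individual members spread on both sides of that level. The lowest ratio was at MED23, a tail subunit bound by the activator ELK1, a target of MAP kinases, with 49 summit reads in the si-CHAF1A list and 76 in the si-Ctrl list (log2 ratio −1.05, counting interval −1.60 to −0.52, percentile 2.15 of all genes), and its summits lay 341 bp apart. MED7, MED19, MED30, CDK19 and INTS3 had log2 ratios of −0.89 to −0.77. The highest was at CCNC (0.50, 0.29 to 0.70, percentile 98.4), followed by MED8 (0.40, −0.10 to 0.92). The strongest site of each complex also lay above the median of all genes, INTS13 at 0.27 (0.19 to 0.34) and MED1 at 0.24 (0.15 to 0.32). This did not hold for all of the strongest members. Of the other members among the 6 strongest of their complex, CCNC, MED22 and INTS5 lay above that median of −0.24. MED11, MED14, MED21, INTS4, INTS6, INTS7 and INTS9 lay below it, at −0.63 to −0.31. With 1 list per group, these intervals compare the lists and not the conditions.

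**Figure D4:**
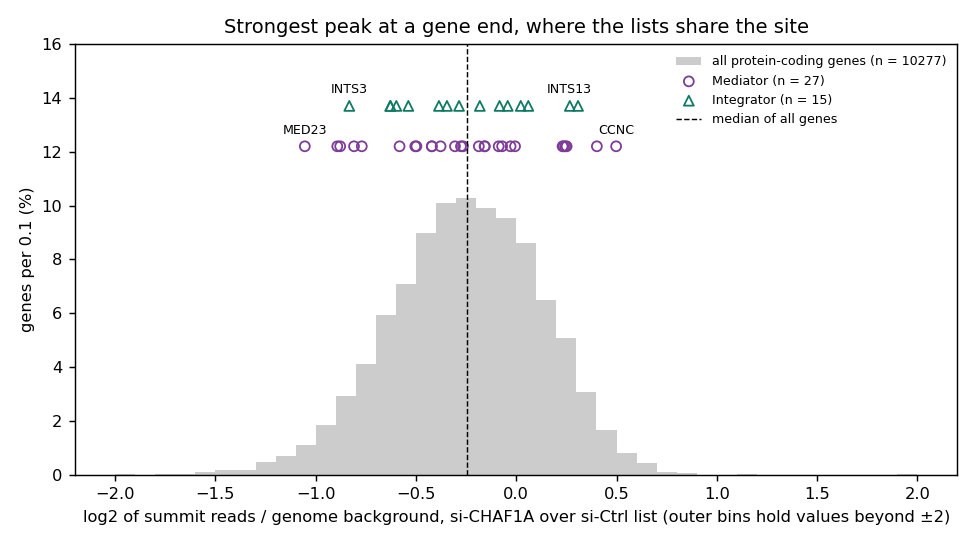
Distribution of the log2 ratio, si-CHAF1A over si-Ctrl list, of summit reads in multiples of background at the strongest peak, where both lists share the site, for all protein-coding genes (histogram, percent per 0.1, 10277 genes), Mediator (circles) and Integrator (triangles). The dashed line is the median of all genes at −0.24; the members spread from MED23 at −1.05 to CCNC at 0.50 around it, and the heights of their symbols carry no value.

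Several peaks lay between a member and a neighbouring gene. The strongest peak also lay at an end of another protein-coding gene for 5 of 29 Mediator and 7 of 15 Integrator genes in the si-CHAF1A list, and for 6 of 30 Mediator and 7 of 16 Integrator genes in the si-Ctrl list. Over all protein-coding genes with a peak the share was 29.0% in the si-CHAF1A list and 29.2% in the si-Ctrl list, inside the intervals of both complexes (5.85 to 35.8% for Mediator and 21.3 to 73.4% for Integrator in the si-CHAF1A list, 7.71 to 38.6% for Mediator and 19.8 to 70.1% for Integrator in the si-Ctrl list). The Integrator genes with a shared peak were INTS5, INTS7, INTS9, INTS11, INTS12, INTS13 and INTS14. The Mediator genes were MED8, MED19, MED22, MED31 and CDK19 in both lists and MED24 in the si-Ctrl list.

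Away from the ends, peaks inside the genes were about as dense as in other genes. There were 103 si-CHAF1A and 76 si-Ctrl peaks inside members, or 3.64 and 2.69 per 100 kb in the si-CHAF1A and the si-Ctrl list, beside 3.47 and 2.59 per 100 kb inside all protein-coding genes. Mediator had 3.44 per 100 kb in the si-CHAF1A list and 2.53 in the si-Ctrl list, and Integrator 4.10 and 3.05 in the si-CHAF1A and the si-Ctrl list. MED27 held the most, 13 in the si-CHAF1A list and 8 in the si-Ctrl list. The long genes of the kinase module were sparse, at 1.43 per 100 kb in the si-CHAF1A list and 1.01 in the si-Ctrl list. Peaks of 1 kb or wider were the strongest peak at 8 Mediator and 8 Integrator genes in the si-CHAF1A list. In the si-Ctrl list they were the strongest at 7 Mediator and 6 Integrator genes. Of members with a peak this was 36.4% (si-CHAF1A list) and 28.3% (si-Ctrl list), beside 27.8% and 19.4% of all genes. For Mediator alone the shares were 27.6% in the si-CHAF1A list and 23.3% in the si-Ctrl list. For Integrator alone they were 53.3% in the si-CHAF1A list and 37.5% in the si-Ctrl list.

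Copies of member genes elsewhere in the genome also carried peaks. The gene table lists 21 pseudogenes named after 7 members, and 6 of them had a peak at an end in the si-CHAF1A list and 6 in the si-Ctrl list, all copies of MED15 or INTS4. This was 28.6% (11.3 to 52.2) in each list, beside 14.8% of all 17051 pseudogenes in the si-CHAF1A list and 11.2% in the si-Ctrl list. The sources used here do not state how reads matching several places were placed, so the values of MED15 and INTS4 are uncertain to that extent.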

How the data were processed

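CUT&Tag of CHAF1A was analysed in RBE cells from 2 deposited peak lists, 1 per group of 2 samples; whether the samples were pooled is not stated. The list named si was read as si-CHAF1A and the list named NC as si-Ctrl. MACS2 2.1.2, Bowtie2 2.2.5, deepTools 3.4.3 and fastp 0.20.1 are named, with the build hg38 and no order of steps, per the submitters' processing notes. The fold that the authors deposited for each peak is a ratio of summit to local background, and p and q are deposited as −log10 values. The deposited score follows the −log10 p and was not used. The lowest −log10 p was 5.00 in each list. Summit offsets and peak bounds were taken as deposited and are printed counting from 1.

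Peaks on other sequences (886 in the si-CHAF1A and 868 in the si-Ctrl list) were left out. Summit reads and local background were solved from fold = (pileup + 1)/(background + 1) and the Poisson tail. A whole pileup within 0.02 reads came out for over 99.9% of peaks in each list. On simulated data 5000 of 5000 pileups were recovered, and overlaps of 2000 intervals were those of bedtools. Read totals were not used here, so depth is known only through the recovered background. Gene bounds came from RefSeq GRCh38.p14, and strand and promoters from a RefSeq promoter table of that build, which matched 37 of 49 members. A gene with several peaks was described by the one with the highest −log10 q.

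The members, the lists of partner genes and the motifs were chosen with earlier results of these data known. The rule for named genes gives values for the 6 strongest members per complex, those in 1 list only or in none, the kinase and cleavage modules and members that share a peak with a neighbour; values of other members, and the comparison of shared heights, were named after they had been seen. No test between conditions was made, as each group has 1 list. Alternatives were a 3 kb window, the 5′ boundary alone, the whole gene, −log10 q of at least 5 or 10, equal numbers of peaks, si-CHAF1A pileups scaled to the si-Ctrl background, 50% reciprocal overlap, summit overlap and ranking by fold, and, chosen after seeing the data, peaks at 1 gene only. The work used Python 3.11.15, matplotlib 3.10.9, scipy 1.17.1, pandas 2.3.3 and numpy 2.4.6.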

Additional observations from a re-analysis of the deposited data

How the results depend on the processing

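Of 62 recomputed values, 53 stayed within 1.5 times the reported count or inside the interval of the reported value, and 9 moved. Not all of the 53 were a check. The si-Ctrl counts of each complex could not change with equal numbers of peaks or with scaled si-CHAF1A pileups. Counts close to all genes of a complex could not rise 1.5 times, and the 5′ setting compared counts over fewer genes. Members with a peak in the si-CHAF1A list only fell to 0 with the 3 kb window and with the whole gene, against 1 as reported, since MED13L then had a si-Ctrl peak. Members in the si-Ctrl list only were 1 under these settings, against 3, with MED24 and INTS1 gaining a si-CHAF1A peak, and 5 with −log10 q of at least 10; wider windows take in more peaks by construction. At that stricter threshold MED9, MED10, MED15, MED4 and INTS15 were the si-Ctrl-only members, MED13L had no peak, and INTS12 was the 1 si-CHAF1A-only member in its place. With peaks at 1 protein-coding gene only, Integrator had 9 genes in the si-CHAF1A list, against 15, and 10 in the si-Ctrl list, against 16. With 50% reciprocal overlap, 75.0% of si-CHAF1A and 73.3% of si-Ctrl member peaks were shared, against 88.3% and 86.7%. Scaling the si-CHAF1A pileups to the si-Ctrl background left the counts of members with a peak and of members in 1 list only as reported. With equal numbers of peaks MED9 joined the si-Ctrl-only members. MED10 stayed in the si-Ctrl list only under each setting tried.

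No paired analysis was possible because each group has 1 list that does not keep its samples apart, and leaving out a sample was not possible for the same reason. Depth was judged from the recovered background alone, and the number of genes per complex limits the precision of the shares.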
